A study of Mus musculus with 10 samples.

Results

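The 38 genes described here encode the 19 secreted Wnt ligands, the 10 Frizzled (FZD) receptors and 9 secreted antagonists of the mouse. The antagonists were *Dkk1*, *Dkk2*, *Dkk3*, *Sfrp1*, *Sfrp2*, *Sfrp4*, *Sfrp5*, *Frzb* and *Wif1*. The genes were taken by family membership, not by their values, and all 38 were found by symbol among the 22359 protein-coding genes of the GENCODE M1 annotation (genome build mm9). For each gene, peaks of 4 histone marks were collected within 2.5 kb of the transcription start site (TSS) of any of its protein-coding transcripts. No other coding gene had a TSS within those windows (0 of 38 members).

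The peaks came from ChIP-seq with a *Drosophila* spike-in (ChIP-Rx). Mouse embryonic stem (ES) cells were let differentiate in clumps called embryoid bodies (EBs), and mCherry+ cells were sorted at day 4. Both lines expressed mCherry from the *Scl* (*Tal1*) locus. *Scl* encodes a basic helix-loop-helix (bHLH) transcription factor needed for blood specification. Reporter cells called *Scl:mCherry* made functional SCL (WT). Reporter cells called *Scl* Δ/Δ:mCherry made a form that lacks the bHLH domain (Delta), and the study derived them from the first line, which came from J1 ES cells. The labels give no treatment, cells of the *Drosophila* S2 line were added to all ChIP samples, and each genotype was 1 ES cell line. The strain label read C57Bl/6 X Sv129 with a last number that counted from 129 up to 136 across the samples. Each mark had 1 library in each genotype. No test was therefore possible, and every difference is one between 2 peak lists without replicates. The gate selected cells by the activity of the *Scl* locus, so the mCherry+ cells of the 2 genotypes may differ in cell type, and a difference in cell makeup and a difference within cells cannot be told apart.

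Wnt proteins are lipid-modified ligands that bind a Frizzled receptor and an LRP5 or LRP6 coreceptor. Binding stops the destruction of β-catenin, which then acts in the nucleus with TCF and LEF factors. Some Wnt proteins act without β-catenin through planar polarity and calcium pathways. SFRP proteins, FRZB and WIF1 bind the ligands outside the cell, and DKK1 and DKK2 block the coreceptors. Wnt signals are needed for mesoderm to form and for its later division into blood, heart and paraxial fates. Of the marks, H3K4me3 lies at promoters and H3K27ac at active promoters and enhancers. H3K27me3 is set by Polycomb repressive complex 2 and H2AK119ub by Polycomb repressive complex 1. Promoters with both H3K4me3 and H3K27me3 are called bivalent and are typical of developmental genes that are silent but kept ready.

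The Wnt genes were strongly Polycomb-marked in both genotypes and almost without H3K27ac. An H3K27me3 peak lay at the TSS of 35 of 38 members in WT and of 35 in Delta, where 34.8% and 32.7% of all genes had one. H2AK119ub was found at 21 members in WT and 14 in Delta, against 9.21% and 5% of all genes. H3K4me3 was found at 34 and 35 members, against 60.7% and 60.3% of all genes. H3K27ac was the exception, with 1 member in WT and 5 in Delta, against 19.9% and 22.8% of all genes. H3K4me3 and H3K27me3 were both present at 33 members in WT and 34 in Delta, with 32 members in both genotypes, where 32.4% and 30.1% of all genes had both marks. Only *Wnt8a* and *Wnt8b* had no peak of any mark at their TSSs in either genotype. Outside the windows, H3K27me3 covered 26.7% of the *Wnt8b* gene body in WT and 36.4% in Delta. H3K4me3 covered 6.78% and 3.75% of it, and H2AK119ub 2.19% and 2.49%. At *Wnt8a* H3K27me3 covered 13.9% of the gene body in WT and 0% in Delta.

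**Figure D1:**
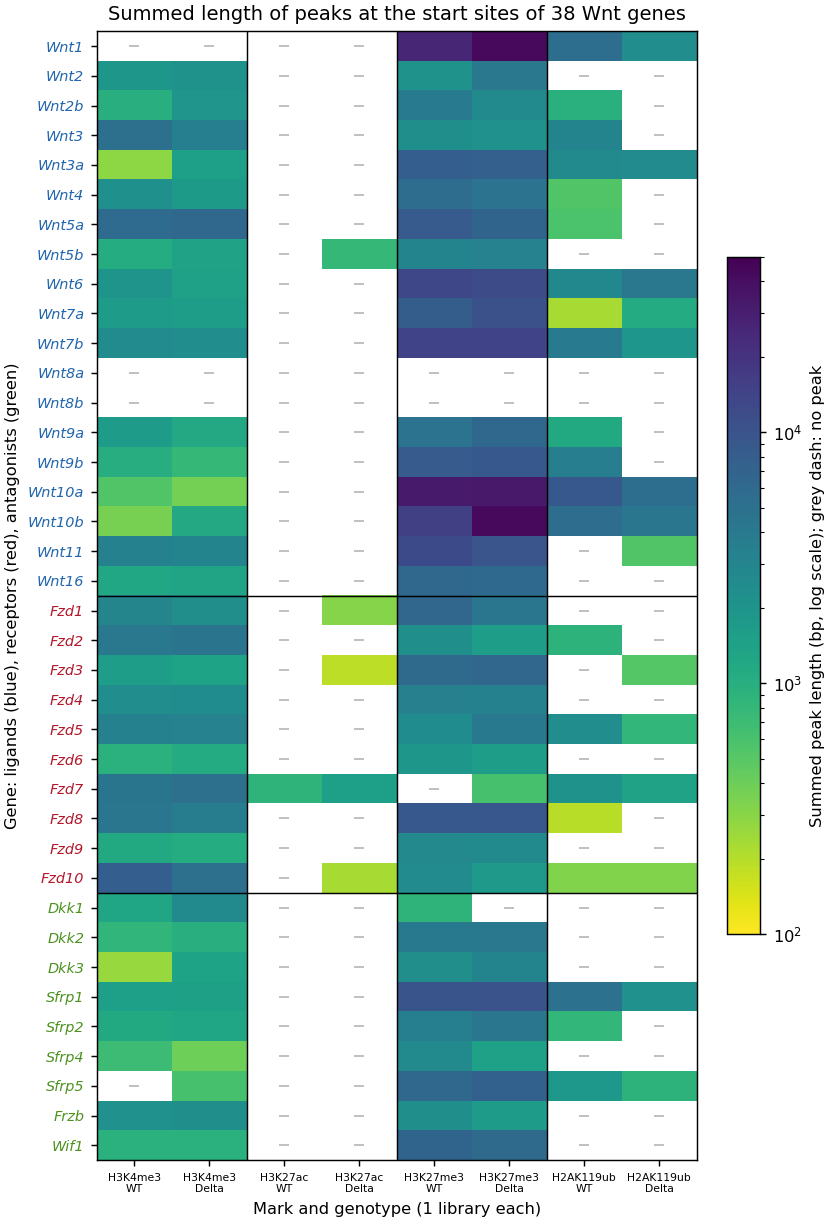
Each row is 1 of the 38 genes and each column 1 of the 8 peak lists. The colour gives the summed length in bp, on a log scale, of the peaks within 2.5 kb of a coding TSS, and a grey dash means no peak. H3K27me3 is filled for 35 genes in WT and 35 in Delta (34 of them shared), H3K27ac for 1 gene in WT and 5 in Delta, and several H2AK119ub cells are filled in WT alone.

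The lists give peak calls, not a level of each mark. The whole lists held 4922 H2AK119ub peaks in WT and 2388 in Delta, and between 4571 and 16038 peaks for each of the other marks. The lists hold no read numbers, and sequencing depth was not used in the comparisons. The study describes spike-in scaling for tag densities but not for peaks, so the lists cannot show a genome-wide rise or fall of a mark. Throughout, the length of a mark at a gene is the full length of every peak that reaches its TSS windows. The fold enrichment of a peak over local background and its −log10 q, a measure of confidence, are the authors' values.

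The promoters of the Wnt genes were rich in CpG. In the 500 bp on either side of the most upstream TSS, the median ratio of observed to expected CpG was 0.750 over the 38 members and 0.553 over the 22347 genes with full sequence there. The ratio was at least 0.6 at 29 of 38 members and at 46.0% of all genes. Among the classes, the median was 0.809 for receptors, all 10 of which reached 0.6. It was 0.738 for ligands, of which 14 of 19 reached 0.6, and 0.605 for antagonists, of which 5 of 9 did. *Wnt8a* and *Wnt8b*, the genes without a peak at a TSS, had the lowest ratios of the 38, 0.254 and 0.326. The median over all genes with both H3K4me3 and H3K27me3 in WT was 0.750, and over genes with no peak in WT it was 0.185.

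Promoters of 5 genes are shown because they carry the extremes described below: the gene with the longest H3K27me3 in WT of each class and those with the longest H3K27ac. Among receptors *Fzd1*, the next after *Fzd8*, is shown. Each is the 250 bases upstream of the most upstream coding TSS in the mm9 reference, 5′ to 3′ on the strand of the gene, with CpG in capitals. The stretches hold no annotated exon.
*Wnt10a*, chr1:74837840-74838089, plus strand, 3 CpG: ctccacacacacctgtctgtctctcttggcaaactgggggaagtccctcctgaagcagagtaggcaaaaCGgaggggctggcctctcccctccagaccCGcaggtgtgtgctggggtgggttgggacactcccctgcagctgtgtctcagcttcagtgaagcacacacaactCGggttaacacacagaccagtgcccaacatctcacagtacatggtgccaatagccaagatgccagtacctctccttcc
*Wnt5b*, chr6:119494337-119494586, minus strand, 38 CpG: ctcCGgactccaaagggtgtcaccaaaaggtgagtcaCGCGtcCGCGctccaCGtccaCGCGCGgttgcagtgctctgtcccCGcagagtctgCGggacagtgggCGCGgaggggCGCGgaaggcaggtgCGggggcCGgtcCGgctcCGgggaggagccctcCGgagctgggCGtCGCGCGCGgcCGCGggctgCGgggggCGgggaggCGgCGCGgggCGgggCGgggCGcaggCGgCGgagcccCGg
*Fzd1*, chr5:4758217-4758466, minus strand, 12 CpG: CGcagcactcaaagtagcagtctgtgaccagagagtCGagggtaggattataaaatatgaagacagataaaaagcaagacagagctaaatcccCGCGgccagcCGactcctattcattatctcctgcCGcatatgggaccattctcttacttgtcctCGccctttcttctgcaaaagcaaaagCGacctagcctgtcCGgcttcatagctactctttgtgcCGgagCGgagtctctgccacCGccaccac
*Fzd7*, chr1:59538741-59538990, plus strand, 17 CpG: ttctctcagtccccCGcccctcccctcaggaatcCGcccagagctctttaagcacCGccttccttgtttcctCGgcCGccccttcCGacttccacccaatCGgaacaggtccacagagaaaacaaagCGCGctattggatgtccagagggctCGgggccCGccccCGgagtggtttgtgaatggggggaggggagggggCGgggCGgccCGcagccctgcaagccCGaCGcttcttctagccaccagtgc
*Sfrp1*, chr8:24521724-24521973, plus strand, 22 CpG: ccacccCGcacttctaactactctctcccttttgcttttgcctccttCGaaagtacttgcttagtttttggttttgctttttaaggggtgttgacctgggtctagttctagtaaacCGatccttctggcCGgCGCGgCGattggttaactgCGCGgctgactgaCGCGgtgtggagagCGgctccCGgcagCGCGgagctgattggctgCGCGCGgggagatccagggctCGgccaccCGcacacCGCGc
The stretch at *Wnt10a* was the poorest of the 5 in CpG, and all 250 bases lay under H3K27me3 and H2AK119ub peaks in both genotypes, with no H3K4me3. The CpG-dense stretch at *Wnt5b* and that at *Sfrp1* lay under H3K4me3 and H3K27me3 in both genotypes. The stretch at *Fzd7* lay under H3K4me3 and H3K27ac in both genotypes and under neither Polycomb mark. At *Fzd1* the stretch lay under H3K4me3 in both genotypes and under H3K27me3 in WT, with 0 of its bases under H3K27me3 in Delta.

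The classes differed in how far each mark extended, in numbers that were not tested because members of a family are not replicates. The classes also differ in annotated start sites, with 30 for the 19 ligands, 11 for the 10 receptors and 10 for the 9 antagonists. More start sites give more room for a peak to be counted, and the part of this was not tested. In WT, the median length of H3K27me3 over genes with a peak was 8040 bp for 17 ligands, 2709 bp for 9 receptors and 3450 bp for 9 antagonists. The corresponding median over all genes with H3K27me3 was 1725 bp. In Delta the medians were 7421 bp for 17 ligands, 2948.5 bp for 10 receptors and 4247 bp for 8 antagonists, against 1980 bp over all genes. The ligands thus had the longest H3K27me3 in both lists, although their ranges overlapped those of the other classes. For H3K4me3 the receptors came first, with a WT median of 3088 bp for 10 receptors, 1642.5 bp for 16 ligands and 1051 bp for 8 antagonists. The median over all genes with H3K4me3 in WT was 1588 bp. The receptors *Fzd6* (947 bp), *Fzd9* (1143 bp) and *Fzd3* (1572 bp) were below it.

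**Figure D2:**
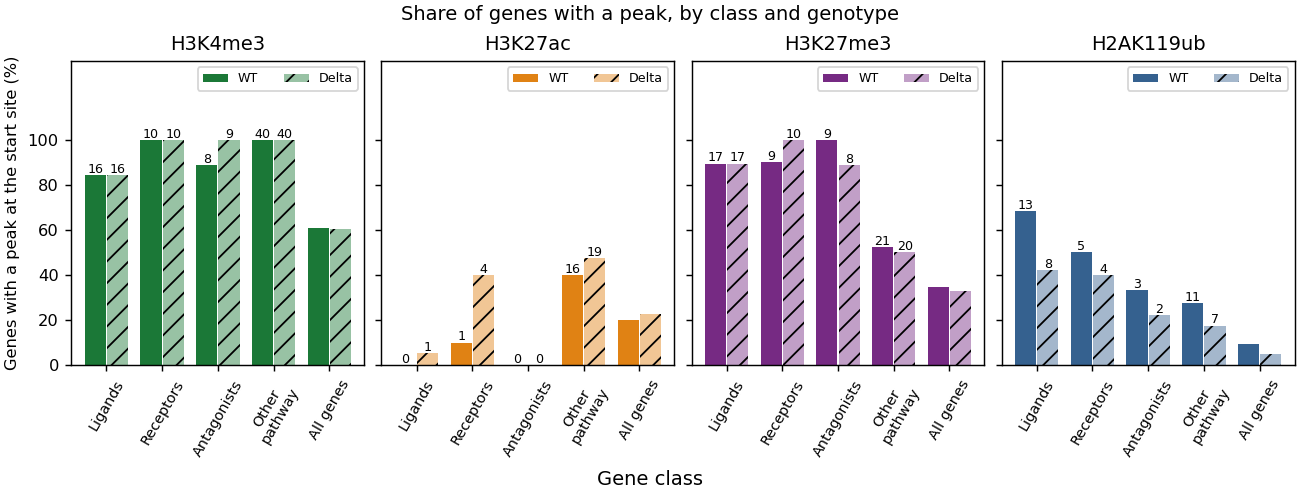
Bars give the percentage of genes with a peak at a TSS in each class, solid for WT and hatched for Delta, with 1 panel per mark and the number of genes above the bar. H3K27me3 is near 90% or above in all 3 Wnt classes, while H3K27ac reaches 4 of 10 receptors in Delta and no antagonist.

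Ligands held the longest H3K27me3 domains. *Wnt10a*, a ligand known from tooth and hair development, lay whole inside 1 peak of 31913 bp in WT and 1 of 32319 bp in Delta. These ranked 34 of 11345 and 28 of 10881 peaks by length, and all bases of the WT peak lay within the Delta peak. At *Wnt1*, a ligand of the midbrain and neural crest, the peak measured 25843 bp in WT. At *Wnt10b*, which promotes bone formation and restrains fat cells, it measured 15246 bp in WT. In Delta both genes lay in a single peak of 42995 bp, which ranked 15 of 10881. *Wnt7b*, a ligand of lung and kidney, had 14291 bp in WT and 14162 bp in Delta, so it hardly differed.

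*Wnt1* (chr15:98620288-98624268, plus strand) and *Wnt10b* (chr15:98602184-98608581, minus strand) lie head to head with their start sites 11707 bp apart. In WT their H3K27me3 peaks were separated by only 1303 bp. The greater length in Delta at both, 1.66 times at *Wnt1* and 2.82 times at *Wnt10b*, came from the closing of that gap in the peak calls. The fold enrichment was 10.2 at *Wnt1* and 7.70 at *Wnt10b* in WT and 10.3 for the shared peak in Delta. H2AK119ub at this pair was shorter in Delta, from 5257 bp in WT to 2360 bp at *Wnt1* and from 5456 bp to 4349 bp at *Wnt10b*. The neighbours *Wnt6* and *Wnt10a* on chromosome 1, which point the same way, kept separate H3K27me3 peaks, 3841 bp apart in WT and 4136 bp apart in Delta.

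**Figure D3:**
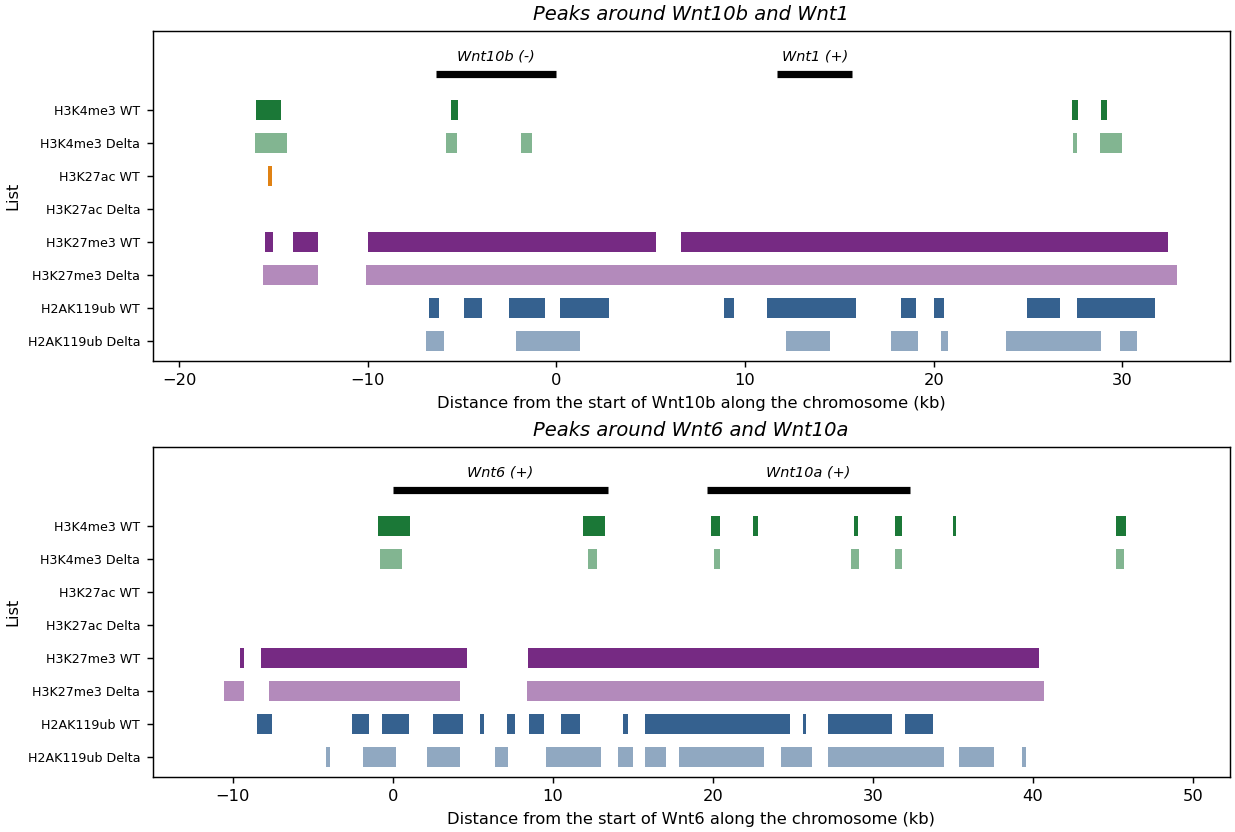
Coloured bars are the peaks of the 8 lists and black bars the genes, with the strand in brackets, drawn by distance in kb from the start of *Wnt10b* (top) or of *Wnt6* (bottom). The H3K27me3 gap of 1303 bp between *Wnt10b* and *Wnt1* in WT is closed in Delta, while *Wnt6* and *Wnt10a* keep separate peaks.

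Over the ligands as a whole the length of H3K27me3 showed no common direction. Of the 17 ligands with a peak in both lists, those above included, 8 were longer and 9 shorter in Delta, and the median ratio of Delta to WT was 0.991. *Wnt2*, a ligand of the early heart and lung, had 2102 bp in WT and 4138 bp in Delta, 1.97 times as long. The WT peak ended 172 bp upstream of its TSS and the Delta peak reached across it. *Wnt2b*, a relative of *Wnt2* with a role in the eye and limb, went the other way, from 3939 bp to 2527 bp, 0.642 times. *Wnt5a*, which drives planar polarity and limb and tail outgrowth, had 8380 bp in WT and 6713 bp in Delta. *Wnt3* and *Wnt3a*, the Wnt ligands of the primitive streak, had 2273 bp and 7859 bp in WT and 2137 bp and 7421 bp in Delta. *Wnt11*, a ligand of heart and mesoderm movement, had 12440 bp and 9668 bp.

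Receptors had shorter H3K27me3 peaks, and 1 receptor had none in WT. *Fzd8* had the longest, 9018 bp in WT against 9219 bp in Delta, and was covered whole in both. *Fzd1* had 6379 bp in WT as 1 peak and 4367 bp in Delta as 2 peaks on either side of the TSS, a ratio of 0.685. *Fzd3*, which guides axons through planar polarity, had 5843 bp and 6479 bp. *Fzd5*, a receptor needed in the yolk sac and eye, had 2455 bp in WT and 4089 bp in Delta, 1.67 times as long. At *Fzd7*, a receptor prominent in pluripotent cells and the primitive streak, no H3K27me3 peak was called in WT and the nearest lay 110359 bp away. In Delta it had a peak of 608 bp, with a −log10 q of 2.31.

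**Figure D4:**
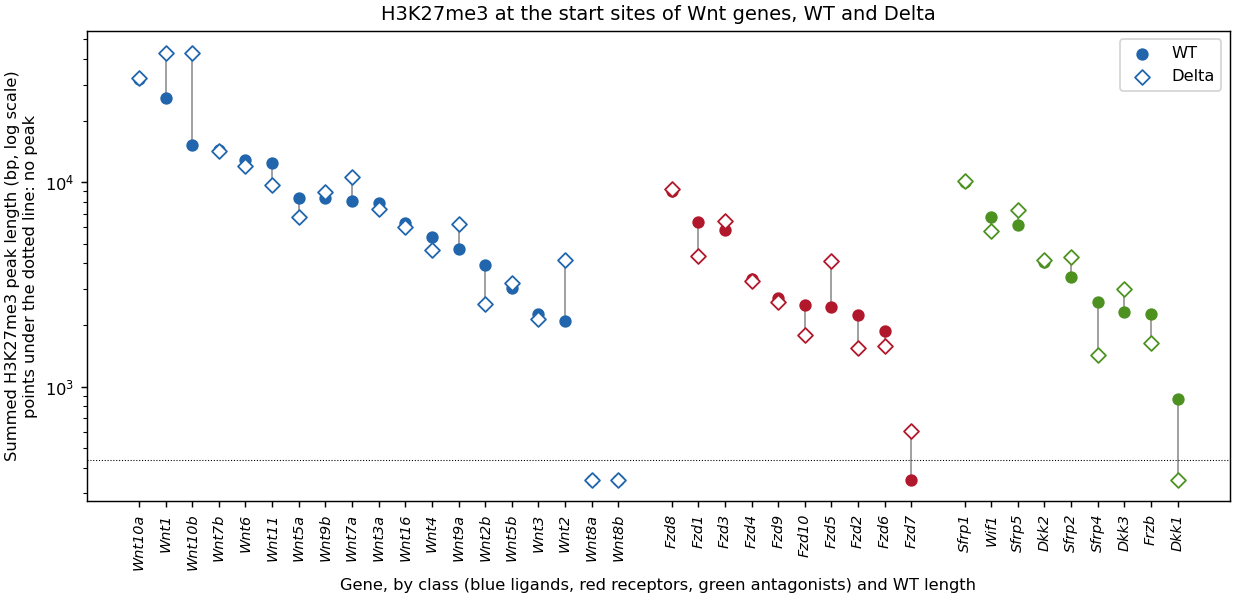
Each gene has a filled circle for WT and an open diamond for Delta at its summed H3K27me3 length in bp (log axis), with genes ordered within each class by WT length and points under the dotted line marking no peak. The Delta diamonds of *Wnt1* and *Wnt10b* are the same peak of 42995 bp. Most other pairs lie close together, apart from *Wnt2*, *Fzd5*, *Wnt2b*, *Sfrp4*, *Fzd7* and *Dkk1*.

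Antagonists lay in between in WT by the median length of H3K27me3. *Sfrp1*, an antagonist widely expressed in the embryo, had 9986 bp in WT and 10115 bp in Delta. *Wif1*, which binds Wnt proteins directly, had 6783 bp and 5783 bp, and *Sfrp5*, an SFRP known from foregut endoderm, had 6150 bp and 7341 bp. *Sfrp4* had the smallest ratio of all members, 0.552, from 2578 bp in WT to 1424 bp in Delta. *Dkk1*, the coreceptor blocker that is needed for head formation, was the only member with H3K27me3 in WT alone. Its WT peak measured 873 bp with a −log10 q of 1.90, one of the weaker calls, and the nearest Delta peak lay 371652 bp away. H3K4me3 at *Dkk1* measured 1309 bp in WT and 2608 bp in Delta.

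Few members differed in their H3K27me3 calls, and the share with a longer domain in Delta was near that of the genome while the share with a shorter one was lower. None of these differences was tested. Of the 34 members with H3K27me3 in both lists, 4 (11.8%) were at least 1.5 times longer in Delta, against 13.5% of all genes with a peak in both. The 4 include *Wnt1* and *Wnt10b*, which lie in the same Delta peak of 42995 bp and are thus not separate cases. Only 2 members (5.88%) were at least 1.5 times shorter, against 14.8% of genes. A peak in WT alone was called at 1 member, against 7.04% of genes, and in Delta alone at 1 member, against 4.91% of genes. Because far more members than genes carried the mark, the share of called genes is the closer comparison. Of the 35 members called in WT, 2.86% had no call in Delta, against 20.2% of genes called in WT, and of the 35 called in Delta 2.86% had none in WT, against 15% of genes. The members called in WT also had longer H3K27me3, with a median of 5393 bp against 1725 bp over all called genes. The part of peak length in these shares was not tested. Summed over distinct peaks, H3K27me3 at the members covered 247851 bp in WT and 247083 bp in Delta, a ratio of 0.997, and the ratio for the whole lists was 1.02.

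The H3K27me3 peaks of the members also had high fold enrichment for their lists. The strongest H3K27me3 peak at a member stood at a median of the 87.3rd percentile of fold enrichment in the WT list and the 82.7th in the Delta list. Over all genes with H3K27me3 the medians were 59.1 and 59.3. In WT, 13 of the 35 members were in the top 10% of the list, of which 9 were ligands. For H3K4me3 the members were low. The median percentile of the members was 37.0 in WT and 34.7 in Delta, against 61.8 and 60.7 over all genes with H3K4me3, and no member reached the top 10% in either list. Within the family the WT H3K4me3 percentile was 23.3 for ligands, 39.8 for antagonists and 56.0 for receptors.

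H3K4me3 was broad at several receptors and weak or absent at several ligands. *Fzd10*, a receptor of the neural tube and limb, had 7782 bp in WT, rank 8 of 16038 peaks by length, and lay whole inside that peak. In Delta it had 5037 bp, rank 71 of 15412. *Fzd7* had 4515 bp and 5086 bp. *Wnt5a* had the longest summed H3K4me3 of the ligands, 5662 bp and 6126 bp, as 2 separate peaks in each genotype. The longest single WT peak at a ligand was that of *Wnt3*, 5070 bp, rank 88 of 16038. *Wnt1* had no H3K4me3 in either genotype, and the nearest peak lay 13805 bp from its TSS in WT and 12997 bp in Delta. For *Wnt8a*, a ligand of the early primitive streak, and *Wnt8b*, a forebrain ligand, the nearest H3K4me3 peak was 34834 bp and 17818 bp away in WT.

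A larger share of members than of all genes had a longer H3K4me3 in Delta, a difference that was not tested. At least 1.5 times longer were 5 of 34 members (14.7%), against 2.99% of genes with a peak in both, and at least 1.5 times shorter were 2 (5.88%), against 9.87%. The 5 were *Wnt2b*, *Wnt3a*, *Wnt10b*, *Dkk1* and *Dkk3*. At 3 of them the WT peak was very short. *Wnt3a* had 290 bp in WT and 1511 bp in Delta, *Dkk3* had 262 bp and 1348 bp, and *Wnt10b* had 360 bp and 1161 bp. At *Wnt3a* the WT peak lay 1404 bp inside the gene, and in Delta a further peak covered the TSS. At *Wnt10b* it lay 5233 bp inside the annotated gene, near the start of a shorter coding transcript. The 2 shorter ones were *Fzd10* and *Sfrp4*, the latter which went from 710 bp in WT to 392 bp in Delta. Summed over the members, H3K4me3 hardly differed, from 73152 bp in WT to 72976 bp in Delta, while the whole lists had a ratio of 0.908.

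A peak of H3K4me3 in Delta alone was called at *Sfrp5*, with 609 bp and a −log10 q of 3.32, and the background for such calls was 0.684% of genes. No member had H3K4me3 in WT alone, which 1.06% of genes had. This count was not stable, since 3 members had H3K4me3 in Delta alone when the TSS distance was 1000 bp and 4 when at least 500 bp of peaks had to lie inside the windows.

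H2AK119ub, the mark of Polycomb repressive complex 1, differed between the lists at the most members, 11 of 38. It was present at 13 of 19 ligands, 5 of 10 receptors and 3 of 9 antagonists in WT. In Delta it was present at 8 ligands, 4 receptors and 2 antagonists. A peak was called in both genotypes at 12 members. In WT alone it was called at 9 members, against 5.08% of genes. Delta alone had it at 2 members, against 0.863% of genes. Of the members called in WT, 42.9% had no call in Delta, and the share over all genes called in WT was 55.1%. Of the members called in Delta, 14.3% had no call in WT, against 17.3% of genes called in Delta. Neither share at the members was thus above that of the genome.

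The 9 members with H2AK119ub in WT alone were *Wnt2b*, *Wnt3*, *Wnt4*, *Wnt5a*, *Wnt9a*, *Wnt9b*, *Fzd2*, *Fzd8* and *Sfrp2*. The longest were *Wnt9b*, a kidney tubule ligand, with 3523 bp, and *Wnt3* with 3006 bp. *Wnt4*, which is needed in the kidney and gonad, had 539 bp, *Wnt5a* 585 bp and *Fzd8* only 193 bp. Most were weak calls, and 8 of the 9 had a −log10 q under 3. None had a −log10 p below 4.75, the lowest in the Delta list. At *Wnt9a* and *Wnt3* the nearest Delta peak lay 3420 bp and 3759 bp from a TSS, a short way outside the windows. The other 7 had no Delta peak within 20 kb. The 2 members called in Delta alone were *Wnt11*, with 538 bp, and *Fzd3*, with 517 bp, both at a −log10 q under 2.

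At the 12 members with H2AK119ub in both lists the peaks were mostly shorter in Delta. *Wnt10a* had the longest, 9092 bp in WT (rank 13 of 4922) and 5301 bp in Delta (rank 49 of 2388), a ratio of 0.583. *Wnt7b* had 3834 bp and 1912 bp, *Sfrp1* 4776 bp and 2137 bp, and *Sfrp5* 1819 bp and 907 bp. *Fzd5* had 2388 bp and 815 bp, the smallest ratio, 0.341. At least 1.5 times shorter in Delta were 6 members (50%), against 45.4% of genes with a peak in both, and at least 1.5 times longer were 2 (16.7%), against 20.1%. Those 2 were *Wnt6*, 2723 bp in WT against 4144 bp in Delta, and *Wnt7a*, a ligand of limb dorsal identity, with 226 bp and 1090 bp. The sum over distinct peaks at members was 52122 bp in WT and 28287 bp in Delta, a ratio of 0.543, with 29 and 19 peaks. The whole H2AK119ub lists had a ratio of 0.54, close to that of the members.

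**Figure D5:**
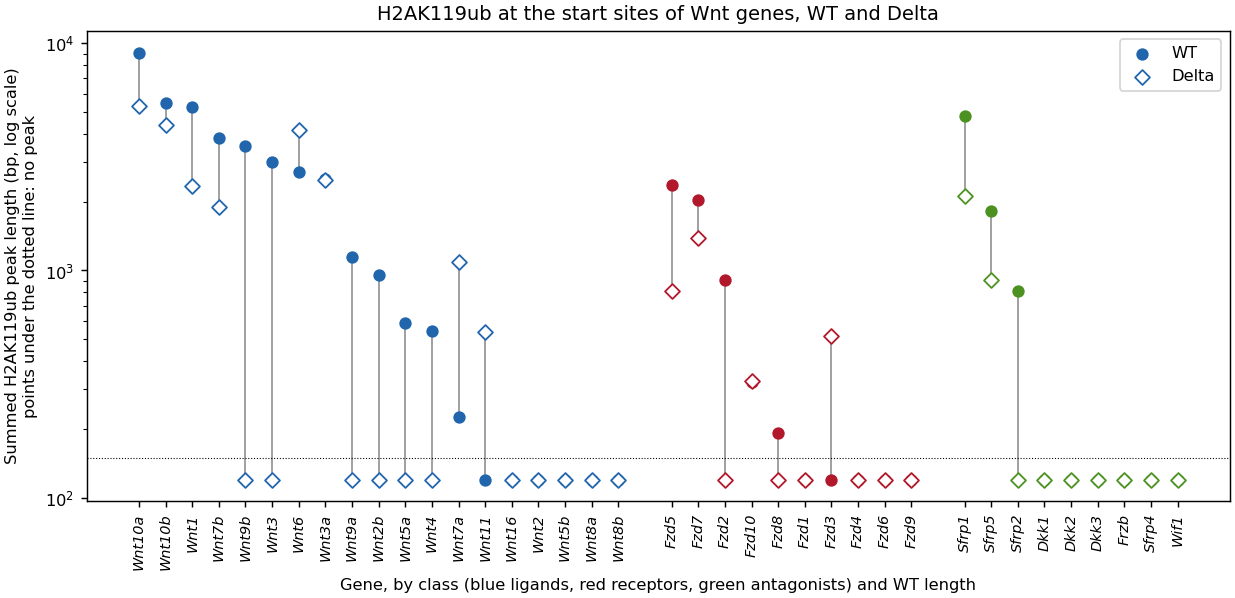
Filled circles (WT) and open diamonds (Delta) give the summed H2AK119ub length in bp (log axis) of each gene, ordered within class by WT length, and points under the dotted line have no peak. In 9 genes the WT circle stands above a Delta diamond at no peak, and in *Wnt11* and *Fzd3* the reverse is seen.

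These calls depended on the cutoff and, in part, on the chromosome. With a −log10 q of at least 3, H2AK119ub was left at 2 members in WT, *Wnt1* and *Wnt2b*, and at 1 in Delta, *Wnt6*. Genes on chromosomes 1 and 8 had more H2AK119ub calls than other genes, 15.9% against 8.43% in WT and 10.3% against 4.39% in Delta. The other marks were also called more often on these chromosomes in both genotypes. In WT the shares were 65.3% against 60.1% for H3K4me3, 26.6% against 19.1% for H3K27ac and 44.1% against 33.8% for H3K27me3. The 5 members there, *Wnt6*, *Wnt10a*, *Fzd5*, *Fzd7* and *Sfrp1*, all had H2AK119ub in both genotypes. Of the 33 members elsewhere, 16 had it in WT and 9 in Delta, 7 of them in both. The part that the chromosome has in these calls was not tested.

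Members with H2AK119ub had the longer H3K27me3 domains, apart from the receptors. In WT the median H3K27me3 length was 7949.5 bp at the 20 members with both marks and 3046 bp at the 15 with H3K27me3 alone of the Polycomb marks. In Delta the medians were 9891.5 bp at 14 members and 4138 bp at 21. All genes showed the same order, with 5657.5 bp and 1085 bp in WT. Among receptors the order did not hold in WT, where the medians were 2482.5 bp with H2AK119ub and 3344 bp without it. As a description over the 38 genes, which share the libraries and include genes in the same peak, the rank correlation of the lengths of the marks was 0.506 in WT and 0.625 in Delta. In WT *Fzd7* was the only member with H2AK119ub and no H3K27me3, and in Delta there was none.

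Of the 5 members with H3K27ac in either list, 4 were Frizzled receptors and 1 was a ligand. In WT the only member with a peak was *Fzd7*, with a peak of 869 bp that spanned the TSS and ended 484 bp inside the gene. In Delta the *Fzd7* peak measured 1483 bp, and peaks were also called at *Fzd1* (310 bp), *Fzd3* (184 bp), *Fzd10* (225 bp) and the ligand *Wnt5b* (804 bp). *Wnt5b* acts mostly without β-catenin. Its peak lay 94203 bp inside the annotated gene, at the start of a shorter coding transcript, and not at the promoter printed above. No antagonist had H3K27ac in either list. The Delta-alone calls thus numbered 4 of 38, against 6.37% of genes, and WT-alone calls 0, against 3.43%. Of the 5 members called in Delta, 80% had no call in WT, against 27.9% of genes called in Delta. These are few calls, and the difference was not tested.

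Most of the H3K27ac calls were weak. The WT peak at *Fzd7* had a −log10 q of 2.08 and its fold enrichment stood at percentile 1.68 of its list. In Delta the percentiles were 74.1 at *Fzd3*, 37.4 at *Wnt5b*, 19.1 at *Fzd1*, 14.4 at *Fzd10* and 12.5 at *Fzd7*. With a −log10 q of at least 3, no member was left in WT and 2 were left in Delta, *Fzd3* at 3.82 and *Fzd7* at 3.43. With at least 500 bp inside the windows, 2 were left in Delta. Within 50 kb of the members, 11 distinct H3K27ac peaks were found around 10 genes in WT and 15 around 12 genes in Delta. All of these except 1 WT peak near *Sfrp1* lay at the TSS of some coding gene.

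By combination of marks, the largest groups were bivalent with or without H2AK119ub. In WT 18 members had H3K4me3, H3K27me3 and H2AK119ub, 12 of them ligands, and 15 had H3K4me3 and H3K27me3 without the other marks, against 7.25% and 14.6% of all genes. In Delta these groups numbered 10 and 19, against 4.26% and 15.6% of all genes. All 4 marks together were seen at no member in WT, where 0.394% of genes had them, and at *Fzd3*, *Fzd7* and *Fzd10* in Delta, where 0.237% did. *Dkk1* had H3K4me3 alone in Delta. The combination was the same in both genotypes at 21 of 38 members (55.3%), against 74.1% of all genes. Of genes with a peak in any list, 59.6% had the same combination. That set leaves out genes without a peak, while *Wnt8a* and *Wnt8b*, which had none, count among the 21.

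The peaks of the bivalent marks overlapped along the genome. Both had to reach windows around the same TSSs, and no such overlap was computed over all genes. H3K27me3 was also the longer mark, with a WT median of 5393 bp at members called for it. For H3K4me3 that median was 1601 bp. At all 33 bivalent members in WT the H3K4me3 and H3K27me3 peaks shared at least 1 base, and at 24 the H3K4me3 lay wholly under H3K27me3. In Delta it did so at 20 of 34. Receptors showed the least overlap, with a median of 78.7% of the H3K4me3 length under H3K27me3 in WT, against 100% for ligands and for antagonists. At *Fzd10* the share was 32.3% in WT and 35.6% in Delta. *Fzd1* had 100% in WT and 55.3% in Delta, where its H3K27me3 was split around the TSS. Whether both marks sit on the same chromosomes or in different cells cannot be told apart in bulk samples.

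A list of 40 other genes of the pathway covered ligand release, coreceptors, the R-spondin axis, cytoplasmic and nuclear components. All 40 had H3K4me3 in both genotypes, against 60.7% of all genes in WT and 60.3% in Delta. H3K27ac was present at 16 (40%) in WT and 19 (47.5%) in Delta, against 19.9% and 22.8% of all genes. H3K27me3 was present at 21 (52.5%) and 20 (50%), against 34.8% and 32.7%. H2AK119ub was present at 11 (27.5%) and 7 (17.5%), against 9.21% and 5%. Of 12 cytoplasmic genes 9 had H3K27ac and 7 had H3K27me3 in WT, and 8 and 5 had them in Delta. Among them was *Ctnnb1*, which encodes β-catenin, with 1243 bp of H3K27ac in WT and no peak in Delta. Of 9 nuclear genes 2 had H3K27ac in WT and 5 in Delta, and 3 had H3K27me3 in both. Of 9 genes of the R-spondin axis, which sets the level of Frizzled receptors at the membrane, 7 had H3K27me3 in WT and 7 in Delta, and 2 had H3K27ac in each. Of 7 genes listed as coreceptors, *Kremen1* and *Kremen2* included, 3 had H3K27me3 in WT and 4 in Delta. No difference between these groups was tested.

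Several secreted or membrane modulators of the pathway had long H3K27me3, and others had little or none. *Notum*, a secreted enzyme that removes the lipid from Wnt proteins, had 8597 bp of H3K27me3 in WT and 8038 bp in Delta. *Rspo1*, which encodes an R-spondin, had 9899 bp and 9267 bp, and *Kremen2*, which encodes a DKK receptor, had 11405 bp and 11962 bp. *Kremen1* and *Lgr4* had no H3K27me3 in either genotype, *Rspo3* had 1018 bp in Delta alone and *Rnf43* 483 bp in WT alone. *Porcn* and *Wls*, which are needed for every Wnt protein to be lipid-modified and secreted, also had no H3K27me3 in either genotype. *Lef1*, a nuclear partner of β-catenin, had 4890 bp of H3K27me3 and no H3K27ac in WT, and 1153 bp of H3K27me3 and 1434 bp of H3K27ac in Delta. *Axin2*, a common readout of β-catenin signalling, had no H3K27ac in WT and a peak of 173 bp in Delta, and its H3K4me3 measured 3642 bp and 5080 bp. *Lgr5* and *Nkd1* went the other way, with 490 bp and 209 bp of H3K27ac in WT and no peak in Delta. Of the 40 genes, 7 had H3K27ac in Delta alone and 4 in WT alone, against 6.37% and 3.43% of all genes.

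Markers of cell type were checked in the same lists. Of 8 genes of blood and endothelial mesoderm, 5 had H3K27ac in WT (*Tal1*, *Lmo2*, *Fli1*, *Gata2* and *Lyl1*) and 1 in Delta (*Eng*). Their H3K27me3, at 6 genes in both lists, was longer in Delta at all 6, with a median ratio of 1.99. Of 5 cardiac and paraxial mesoderm genes, *Hand1* had H3K27ac in Delta and none had it in WT. Their H3K27me3, at 3 genes in both lists, was shorter in Delta at all 3, with a median ratio of 0.857. Their H3K4me3, at 4 genes in both lists, was longer in Delta at all 4, with a median ratio of 1.93. None of 4 pluripotent, 2 neural and 3 endoderm markers had H3K27ac in either list. The part of a different cell makeup in the values of the Wnt genes was not tested.

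Short motifs in the 500 bp upstream of the TSS were counted in the members and in all genes, with no test of the difference. The E-box CANNTG, the general bHLH site, matched on either strand at 30 of 38 members (78.9%) and at 87.7% of the 22347 genes. The E-box form CAGATG, which is a case of CANNTG and the form known for SCL, matched at 7 members (18.4%), against 25.8% of genes. These were *Wnt5a*, *Wnt6*, *Wnt16*, *Fzd1*, *Fzd2*, *Dkk2* and *Sfrp5*. The GATA site AGATAA matched at 7 members (18.4%), against 19.97% of genes. The TCF/LEF site CTTTGAT matched at 3, *Wnt8a*, *Wnt11* and *Dkk1* (7.89%), against 6.67% of genes. A match is only a match of letters.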

How the data were processed

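H3K4me3, H3K27ac, H3K27me3 and H2AK119ub ChIP-Rx libraries of sorted day 4 EB cells were compared between WT and Delta, with 1 library each and 2 inputs whose reads were not analysed here. According to the methods of the study, the authors mapped reads with Bowtie to mm9 and dm3, removed duplicates and called broad peaks per library with MACS2 2.0.10 against the input of the same genotype. The deposited lists give the fold enrichment, a ratio, and the −log10 p and −log10 q of each of 70826 peaks. The score that the authors deposited was 10 times the −log10 q to within 1, and was not used.

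Groups came from the sample titles. A gene counted as called if any of its protein-coding TSSs in GENCODE M1 had a peak at most 2500 bp away, and lengths are of whole peaks. Length ratios were counted from 1.5 in either direction. Calls were tested on simulated data and checked against bedtools 2.31.1, with 0 genes differing. Alternatives were TSS distances of 1000 and 5000 bp, a −log10 q of at least 3, the most upstream TSS alone, at least 500 bp inside the windows, peaks up to 3000 bp apart joined, and bases inside the windows alone.

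The members and lists were chosen with earlier results of these data known. Named genes were those whose call differed, the 3 longest H3K27me3 of each class in WT, all with H3K27ac, all without H3K4me3 or H3K27me3, and the 3 largest and smallest H3K27me3 ratios. Others were named after their values were seen. Of 23 cell type markers, 22 were matched by symbol. Analyses used Python 3.11.15 and numpy 2.4.6.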

Additional observations from a re-analysis of the deposited data

How the results depend on the processing

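Of 138 values recomputed, 117 stayed within 1.5 times the value given and 21 moved further. The summed length ratios of the 4 marks and the bivalent counts all stayed within it. The strictest setting, a −log10 q of at least 3, moved 9 values. It left H3K27ac at 0 members in WT and 2 in Delta (2 in Delta alone), and H2AK119ub at 2 in WT and 1 in Delta (2 in WT alone and 1 in Delta alone). It gave 2 members with H3K4me3 in Delta alone and 0 with H3K27me3 in Delta alone. There is no H3K27ac length ratio for that setting, with 0 WT peaks left.

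With a TSS distance of 1000 bp, H3K4me3 in Delta alone numbered 3 and H2AK119ub in WT alone 5. With 5000 bp, H3K27me3 in Delta alone numbered 2 and H2AK119ub in Delta alone 1. The most upstream TSS gave 2 members with H3K4me3 in Delta alone. At least 500 bp inside the windows gave 2 members with H3K27ac in Delta (1 in Delta alone) and H3K4me3 in WT alone at 2 and in Delta alone at 4. Without the members on chromosomes 1 and 8, chosen after seeing the data, H3K27ac in WT numbered 0, H2AK119ub in Delta 9 and H3K27me3 in Delta alone 0, again with no H3K27ac length ratio. The cause was not tested where a value moved.

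No paired analysis was possible because each genotype had 1 library per mark. The lists hold no read numbers, and a missing call is not the absence of a mark.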
